A study of Homo sapiens with 12 samples.

Results

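The genes described were 43 of the 57500 genes counted, taken by gene symbol as keratins and as markers of squamous, basal or luminal breast epithelium. The set held 22 keratins, 4 cornified envelope precursors, 2 desmosomal cadherins, 4 basal or progenitor transcription factors, 6 luminal transcription factors and receptors, 4 genes of cell adhesion and VIM. Total RNA depleted of rRNA had been sequenced from a pair of human triple-negative breast cancer cell lines, each with and without depletion of PACT, the double-stranded RNA binding protein encoded by PRKRA, by CRISPR-Cas9. HCC1806 cells carried the control guide sgC1 or the depleting guide sgPACT-2, and MDA-MB-468 cells carried the control guide sgNTA or the same sgPACT-2. There were 12 libraries, 3 for each line and guide. Because the control guides differed, line and control guide cannot be told apart in a comparison of the control libraries, whereas the sgPACT-2 libraries of both lines carried 1 guide. The labels did not say whether the libraries of a group came from separate cultures, or whether depleted cells were a pool or 1 clone. The p-values therefore measure only the spread between these libraries.

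Keratins are the intermediate filament proteins of epithelial cells, and each filament pairs an acidic type I keratin with a basic type II keratin. Simple luminal cells are known for KRT7, KRT8, KRT18 and KRT19, basal cells of stratified and glandular epithelium for KRT5, KRT14, KRT15 and the transcription factor p63, and stressed or hyperproliferative keratinocytes for KRT6, KRT16 and KRT17. Squamous differentiation adds other keratin pairs, the cornified envelope precursors and desmosomal cadherins such as desmoglein 3. HCC1806 was derived from a squamous carcinoma of the breast and MDA-MB-468 from a metastatic breast adenocarcinoma, and both are usually grouped with basal-like lines.

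The libraries of HCC1806 held 18640633 to 24704877 counts and those of MDA-MB-468 held 34581754 to 44790741 counts. Levels are given in CPM, the usual library-size scaling of counts, made comparable over all 12 libraries, and levels of different genes are compared per kilobase of exon. Exon length was that of all annotated exons of a gene merged, which can exceed the length of any single transcript. The threshold for a change was an adjusted p-value under 0.05 from edgeR's quasi-likelihood test, adjusted over all genes tested by the Benjamini-Hochberg method. The targeted gene PRKRA fell in HCC1806 from 77.8 ± 5.3 to 36.9 ± 0.774 CPM (SD, n = 3; log2 fold change -1.06, SE 0.11, adjusted p = 0.00311). In MDA-MB-468 it was 44.7 ± 3.12 CPM with sgNTA and 38.8 ± 3.09 CPM with sgPACT-2 (log2 fold change -0.19, adjusted p = 0.383), so the transcript did not check the label of the depleted MDA-MB-468 libraries. The triple-negative label was checked on the receptor genes: PGR, the progesterone receptor, had 4 counts in all HCC1806 controls and 1 in all MDA-MB-468 controls. ESR1, the estrogen receptor, stood at 1.51 ± 0.131 and 0.481 ± 0.0296 CPM per kilobase, and ERBB2 at 194 ± 14.2 and 139.8 ± 5.02 CPM. ERBB2 transcript was therefore present in both lines, and the label rests on receptor protein and amplification, which RNA does not show. Of 7 stromal and blood cell markers, CD3E had 1 count over all libraries, and the highest was COL1A1, at 33.4 ± 6.43 CPM in HCC1806 controls and 19.8 ± 1.54 in MDA-MB-468 controls.

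Several members belong to families of near-identical genes, and their counts depend on how reads shared between copies were treated, which is not given in the sources used here. The windows below show, in GENCODE 29 (GRCh38), where the copies whose levels differed most between the lines can be told apart. Each was chosen as the run of 60 coding bases, inside 1 exon and without gaps, with the most differences of the first gene from its copies. They are therefore not typical of the coding sequence. Over the coding sequence KRT6A was 97.5% identical to KRT6B and 97.9% identical to KRT6C. Of the 100-base stretches of its longest transcript, 81.8% were found in no other gene, against 75.4% for KRT6B and 68.3% for KRT6C. Capitals mark the positions of 60 coding bases of exon 1 at which KRT6A differs from the other copies; all 3 genes lie on the minus strand and each run is written 5′ to 3′ along the transcript.
KRT6A, chr12:52492694-52492753: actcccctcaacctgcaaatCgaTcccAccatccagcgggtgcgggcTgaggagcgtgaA
KRT6B, chr12:52451584-52451643: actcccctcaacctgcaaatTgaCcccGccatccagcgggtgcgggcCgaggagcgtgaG
KRT6C, chr12:52473243-52473302: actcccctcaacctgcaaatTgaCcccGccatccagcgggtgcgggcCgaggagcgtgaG
KRT6A differed from KRT6B at 5 of these positions, and KRT6B and KRT6C were the same here, so a read from this stretch can tell KRT6A from KRT6B but not KRT6B from KRT6C.

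The hair keratin KRT81 was 94.2% identical to KRT86 and 93.4% identical to KRT83 over the aligned coding sequence, and 69.7% of its 100-base stretches were its own. The windows show 60 coding bases from exon 5 of KRT81 and KRT83, on the minus strand, and exon 7 of KRT86, on the plus strand, with capitals at the positions that differ among the 3 genes.
KRT81, chr12:52288011-52288070: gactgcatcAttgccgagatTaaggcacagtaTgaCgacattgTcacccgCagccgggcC
KRT86, chr12:52305318-52305377: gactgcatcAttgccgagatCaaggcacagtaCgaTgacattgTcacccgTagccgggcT
KRT83, chr12:52316886-52316945: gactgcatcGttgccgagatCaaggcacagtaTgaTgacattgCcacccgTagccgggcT
KRT81 differed from KRT86 at 5 positions and from KRT83 at 6. Values of the KRT6 copies, of KRT81, KRT83 and KRT86, of KRT14 and KRT16 (88.7% identical), and of SPRR1A and SPRR1B (96.3% identical) are therefore uncertain to the extent that reads were shared. The strand setting of the counting is also not given. KRT8 and KRT18 share 525 exon bases on opposite strands. KRT13, KRT7, KRT23, KRT75, KRT86, PGR, CDH1, CDH2, CDH3 and VIM overlap antisense or noncoding genes. KRT10, FOXA1 and SOX10 share at most 89 exon bases with a gene on the opposite strand. Without the strand setting, reads of such partners cannot be told apart.

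Both HCC1806 libraries numbered 1, one of each guide, stood apart from the other HCC1806 libraries in some squamous markers and not in others. KRT13, the type I keratin of internal stratified epithelium, was at 37.9, 152 and 162 CPM in sgC1 libraries 1, 2 and 3 and at 13.8, 77.5 and 175 CPM in the sgPACT-2 libraries. Its type II partner KRT4 was at 9.38, 41.9 and 56.2 CPM with sgC1 and at 3.48, 29.9 and 50.2 CPM with sgPACT-2. VIM, the mesenchymal intermediate filament, went the other way, at 13.8, 4.39 and 4.07 CPM with sgC1 and 9.9, 2.3 and 0.868 CPM with sgPACT-2. In each guide the library numbered 1 was thus lowest in KRT13 and KRT4 and highest in VIM, and the guides overlapped in all 3 genes. On the log2 (CPM + 0.5) scale, libraries numbered 1 differed from the mean of the other pair by -2.31 (sgC1) and -3.30 (sgPACT-2) in KRT4. The differences were -2.03 and -3.03 in KRT13, -0.92 and -1.20 in involucrin (IVL), -1.09 and -0.91 in SOX2, and -0.97 and -0.97 in KRT15. They were positive in VIM, at 1.60 and 2.41, and in CDH2 (N-cadherin), at 0.99 and 1.61. The squamous markers did not move as 1 set. The differences were -0.52 and -0.51 in DSG3 and -0.14 and -0.38 in DSC3. In KRT6A they were 0.03 and 0.74, in SPRR1A 0.10 and 0.11, and in SPRR1B 0.53 and 1.59. Signs were mixed in KRT16 (0.05 and -0.56) and SPRR3 (-0.21 and 1.19). In MDA-MB-468 the same differences ran from -0.56 to 0.48 for KRT4, KRT13, IVL, SOX2, KRT15, VIM and CDH2. These genes were chosen on the HCC1806 values. SOX2 had 0 counts in MDA-MB-468, and KRT13 (0.928 CPM) and CDH2 (1.97 CPM) were low in its controls, so they could show little. Other members of MDA-MB-468 differed in both guides: KRT17 by 0.34 and 0.46, KRT14 by 0.33 and 0.41, and KRT5 by 0.18 and 0.43. KIT differed by -0.25 and -0.19 and DSC3 by -0.18 and -0.12. Results that rest on the HCC1806 libraries numbered 1 are given below with and without both of them, a setting chosen after the data were seen.

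**Figure D1:**
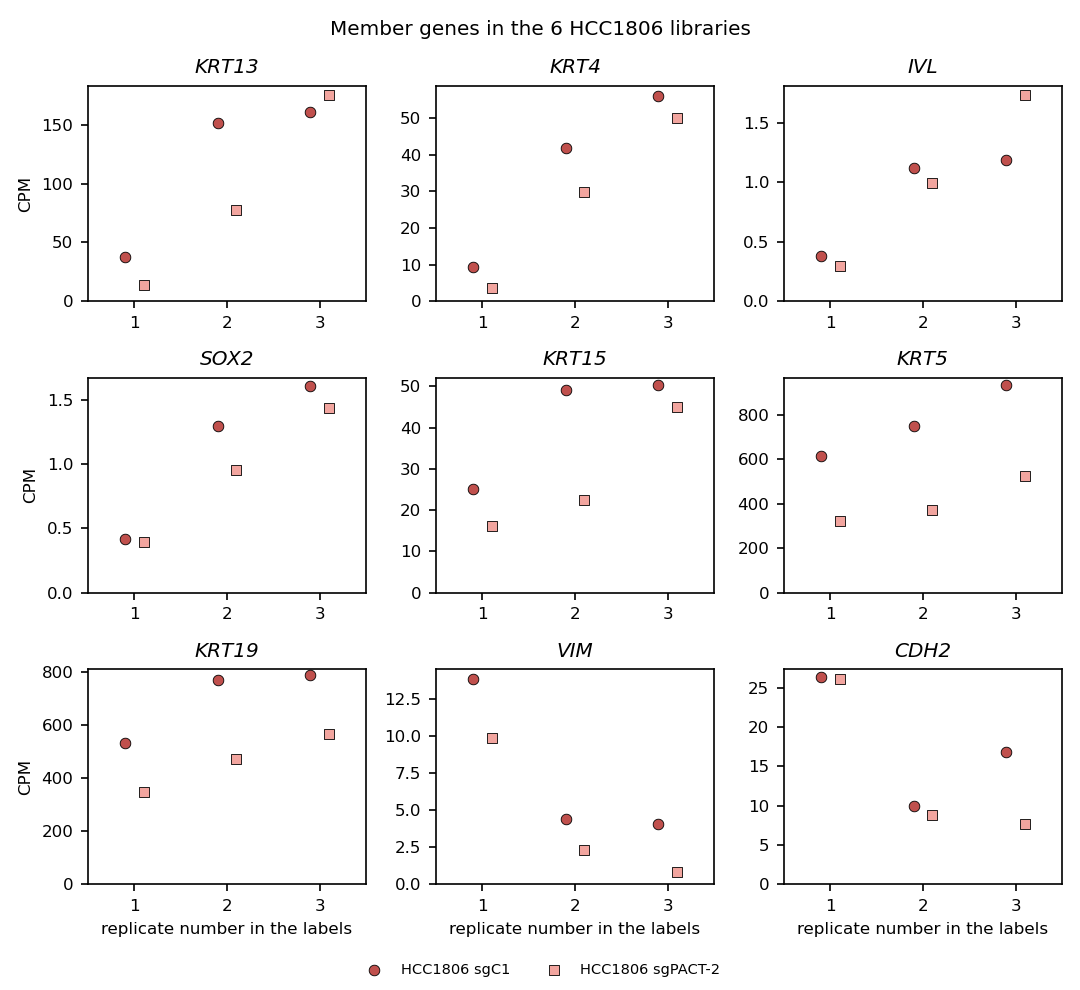
CPM (linear axes from 0) of 9 members in each of the 6 HCC1806 libraries, by the replicate number in the labels; circles are sgC1 and squares sgPACT-2 libraries. KRT13, KRT4, IVL and SOX2 were lowest and VIM and CDH2 highest in libraries numbered 1 of both guides, whereas KRT5 was lower in every sgPACT-2 library than in any sgC1 library.

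In control cells both lines held a mixture of luminal and basal keratins. Per kilobase of exon, KRT19 was the most abundant member in each line, at 298 ± 61.3 CPM per kilobase in HCC1806 and 421 ± 25.8 in MDA-MB-468 (mean ± SD, n = 3). By this measure KRT5, KRT7 and KRT19 were the 3 highest members in both lines. KRT5 stood at 179 ± 37.4 and 265 ± 21.5 and KRT7 at 157 ± 12.3 and 285 ± 23.7 CPM per kilobase. Within each line KRT5 and KRT7 did not differ beyond their spread. Below them the order of the lines parted. In HCC1806 the next places were held by KRT6A (84.7 ± 1.15), P-cadherin gene CDH3 (80.4 ± 7.83) and EPCAM (78 ± 12.2), which lay within 1 SD of each other, and p63 gene TP63 ranked 11 at 33.3 ± 2.34 CPM per kilobase. In MDA-MB-468 they were held by KRT81 (244 ± 37), KRT17 (207 ± 30.3) and KRT8 (194 ± 7.28), of which KRT81 lay within the spread of KRT5, and TP63 ranked 37 at 0.0832 ± 0.0286. The order depends on the exon lengths used. KRT8 was given 6.881 kb, against 2437 bases in its longest coding transcript, and KRT81 1.929 kb against 1929 bases. In CPM not divided by length, KRT8 was the highest member in MDA-MB-468 controls, at 1336 ± 50.1. At the low end, SOX10, a neural crest factor found in many basal-like tumors, had 0 counts in all 12 libraries, and KRT1, the suprabasal keratin of epidermis, had 2 counts in HCC1806 controls and 3 in MDA-MB-468 controls. A group total of 0 allows up to 0.0429 CPM in HCC1806 controls and 0.0276 in MDA-MB-468 controls (3 counts over the group, counting error only).

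**Figure D2:**
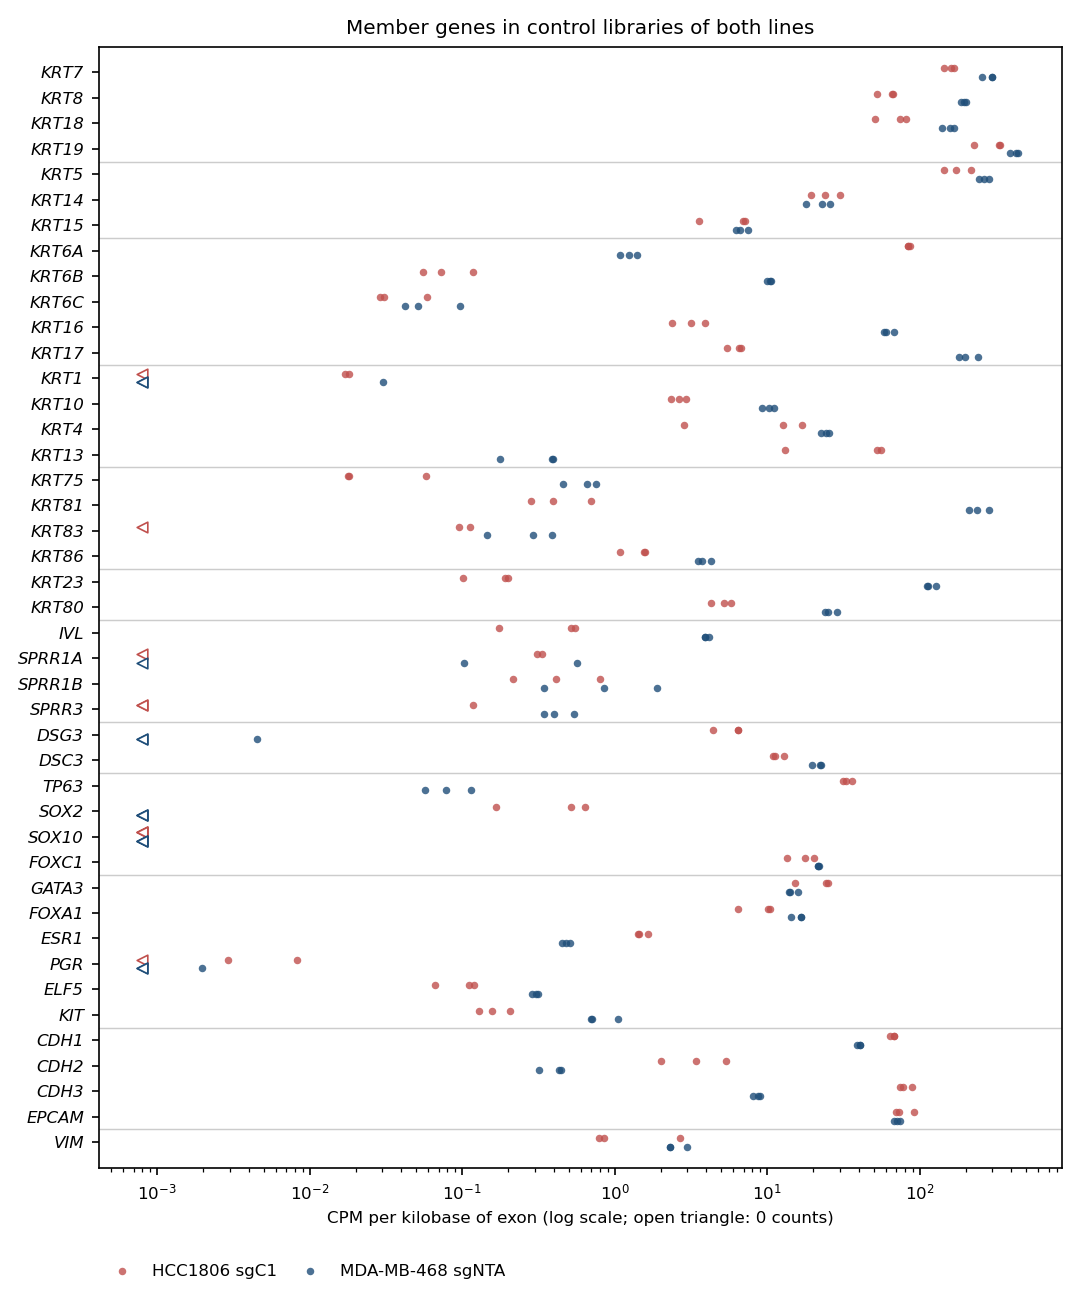
Level of each of the 43 genes in the control libraries, in CPM per kilobase of exon on a log axis; each point is 1 library, open triangles are libraries with 0 counts, and lines separate the roles. HCC1806 points lie far above MDA-MB-468 points for KRT6A, KRT13, DSG3 and TP63, and far below them for KRT6B, KRT17, KRT81 and KRT23.

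The comparison of control libraries asked how the epithelial identity of the lines differed. Of the 43 members 38 had counts enough to be tested, and 31 passed, 21 higher and 10 lower in MDA-MB-468. Of all genes tested, 74.2% passed (34.2% higher and 40.1% lower), so the share of members was near that of the transcriptome. With a difference of at least 1 on the log2 scale as well, 24 members passed, 16 higher and 8 lower, against 56.4% of all genes (23.2% higher and 33.2% lower). Differences of at least 4 on the log2 scale, a size chosen after the data were seen, were found for 11 members, 6 higher (KRT23, KRT81, KRT6B, KRT17, KRT16 and KRT75) and 5 lower (DSG3, TP63, SOX2, KRT13 and KRT6A), against 3.79% and 10.6% of all genes. The median difference of all genes was -0.26 with the TMM scaling used and -0.30 with RLE size factors. KRT6C, KRT1, SPRR1A, SOX10 and PGR were not tested because of low counts.

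**Figure D3:**
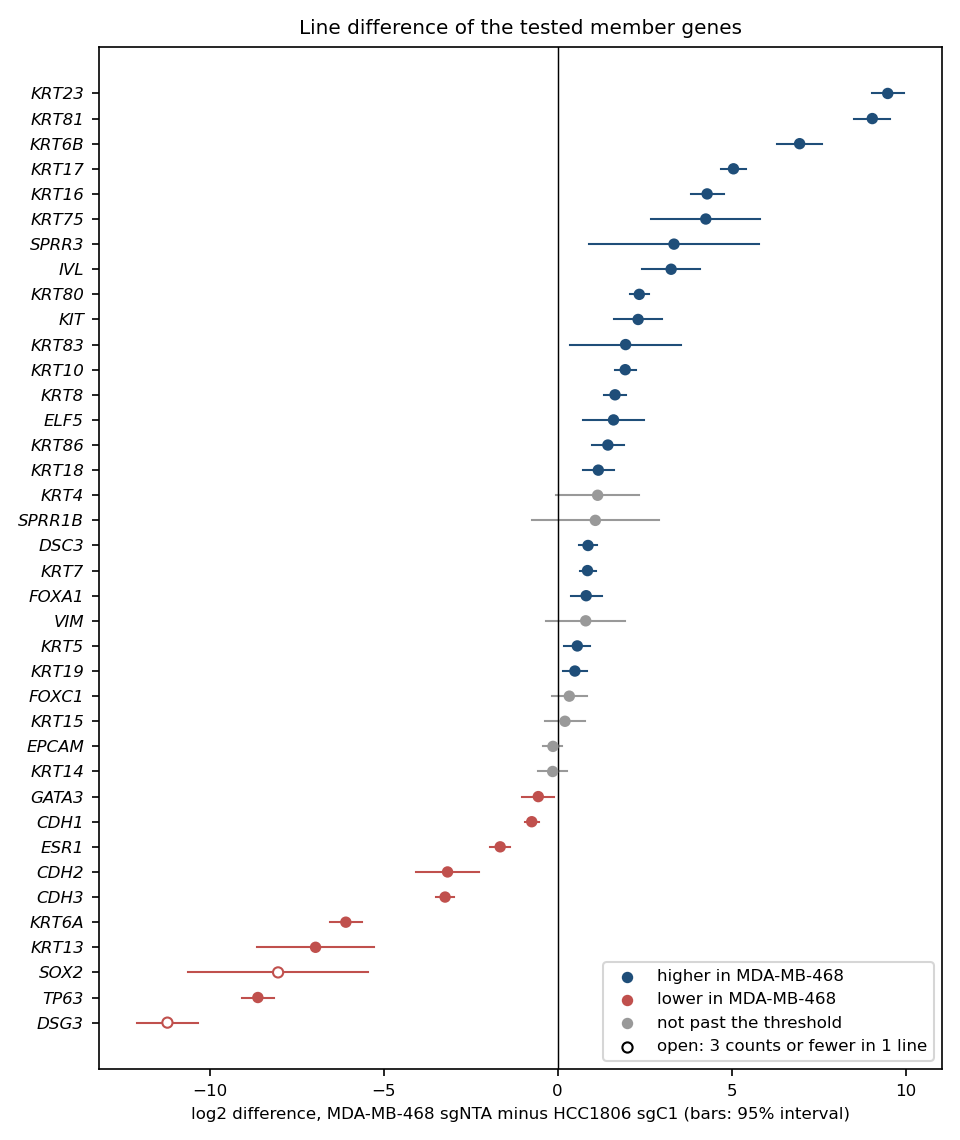
Log2 difference of each of the 38 tested members between MDA-MB-468 sgNTA and HCC1806 sgC1 libraries (x axis; bars are 95% intervals of the fit), in order of size. KRT23 (9.49) and KRT81 (9.04) lie farthest to the right; for SOX2 and DSG3, drawn open, MDA-MB-468 controls held 0 and 1 counts and the fitted value depends on the prior count.

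All 4 simple epithelial keratins were higher in MDA-MB-468. KRT8, the type II keratin of simple epithelia, was at 453, 361 and 461 CPM in the HCC1806 controls and at 1353, 1279.6 and 1375 CPM in those of MDA-MB-468. The groups did not overlap, and the difference was 3.14-fold (log2 difference 1.65, SE 0.15, adjusted p = 2.12e-08). Its partner KRT18 differed by 1.17 (adjusted p = 9.18e-05), KRT7 by 0.86 (adjusted p = 1.60e-06) and KRT19 by 0.50 (adjusted p = 0.00977). Among the basal keratins only KRT5 passed. It was at 616, 748 and 936 CPM in HCC1806 and 1232, 1127 and 1048 CPM in MDA-MB-468 controls, without overlap (log2 difference 0.57, SE 0.17, adjusted p = 0.00745). KRT14, which pairs with KRT5 in basal cells, was at 54.8, 68.6 and 44.4 CPM in HCC1806 and 58.7, 52.3 and 41.2 CPM in MDA-MB-468 controls, and the groups overlapped (log2 difference -0.14, 95% interval -0.56 to 0.28). KRT15, a type I keratin of basal and stem-like cells, overlapped as well (0.21, interval -0.37 to 0.80).

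The stress and hyperproliferation keratins included copies that differed in opposite directions. KRT6A was at 252, 247 and 245 CPM in HCC1806 controls and at 4.12, 3.19 and 3.62 CPM in MDA-MB-468 controls, 67.8-fold lower (log2 difference -6.08, SE 0.22, adjusted p = 1.43e-13). KRT6B was at 0.167, 0.269 and 0.127 CPM in HCC1806 and at 24.3, 23.9 and 22.7 CPM in MDA-MB-468, 124-fold higher (log2 difference 6.96, SE 0.31, adjusted p = 1.54e-12). KRT6A and KRT6B, whose windows are printed above, thus had no overlap between the lines. KRT6C stayed between 0.0834 and 0.279 CPM in the controls of both lines, which overlapped. Per kilobase, KRT6B in MDA-MB-468 (10.3 ± 0.37 CPM per kilobase) was below KRT6A in HCC1806 (84.7 ± 1.15). KRT16 and KRT17, type I partners of KRT6, were higher in MDA-MB-468 by 4.30 (adjusted p = 1.43e-11) and 5.05 (adjusted p = 4.48e-14) on the log2 scale. KRT17 stood at 19.5 ± 2.2 CPM in HCC1806 and at 648 ± 94.7 CPM in MDA-MB-468 (SD, n = 3), so KRT17 was high in the line with little KRT6A.

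Among the keratins of suprabasal layers, KRT10 of the epidermis was at 6.34, 5.01 and 5.68 CPM in HCC1806 and 23.7, 22 and 19.9 CPM in MDA-MB-468 controls (log2 difference 1.94, SE 0.14, adjusted p = 1.25e-09). KRT13 went the opposite way, from the HCC1806 values given above to 1.14, 0.517 and 1.12 CPM in MDA-MB-468, and even the lowest HCC1806 library lay far above the highest MDA-MB-468 library (log2 difference -6.95, SE 0.79, adjusted p = 4.23e-07). Without both HCC1806 libraries numbered 1 the difference was -7.36. KRT4 did not pass (log2 difference 1.15, adjusted p = 0.077), although the groups did not overlap, at 80.1, 75 and 83.7 CPM in MDA-MB-468. Without both libraries numbered 1 it passed, at 0.71 (adjusted p = 0.000528), and it also passed without 1 library in 3 cases, HCC1806 sgC1 replicate 3 (1.65), sgPACT-2 replicate 1 (1.17) and sgPACT-2 replicate 3 (1.17). The usual KRT4 and KRT13 partners were thus unequal in MDA-MB-468, where KRT4 stood at 24 ± 1.32 and KRT13 at 0.318 ± 0.122 CPM per kilobase.

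The 4 hair and follicle keratins passed as higher in MDA-MB-468 controls, led by KRT81, a type II keratin of the hair shaft. KRT81 was at 0.542, 0.761 and 1.36 CPM in HCC1806 controls and at 546, 404 and 460.2 CPM in MDA-MB-468 controls, 528-fold higher (log2 difference 9.04, SE 0.24, adjusted p = 4.17e-15). Its near copies had smaller differences: KRT86 differed by 1.45 (adjusted p = 1.54e-05) and KRT83 by 1.95 (adjusted p = 0.0274), and KRT86 reached only 3.83 ± 0.407 CPM per kilobase in MDA-MB-468 beside 244 ± 37 for KRT81. KRT83 did not pass without HCC1806 sgC1 replicate 1, which had 0 counts of it (1.39, adjusted p = 0.0942), without both libraries numbered 1 (1.39, adjusted p = 0.107), or between the sgPACT-2 libraries (0.97, adjusted p = 0.238). KRT75, a follicle keratin, was higher by 4.26 at a low level (1.45 ± 0.351 CPM in MDA-MB-468). The largest difference of any member that was measured in both lines was in KRT23, a type I keratin outside the main luminal and basal pairs. KRT23 was at 0.292, 0.582 and 0.551 CPM in HCC1806 and 373, 328 and 324 CPM in MDA-MB-468 controls, 718-fold higher (log2 difference 9.49, SE 0.22, adjusted p = 6.57e-16). KRT80, a type II keratin found near desmosomes, differed by 2.35 (adjusted p = 3.45e-11).

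Of the cornified envelope precursors, which transglutaminases cross-link under the membrane of keratinocytes, 2 of the 3 tested were higher in MDA-MB-468 and all were scarce. SPRR3 was at 0, 0 and 0.169 CPM in HCC1806 controls and 0.78, 0.578 and 0.499 CPM in MDA-MB-468 controls (log2 difference 3.35, SE 1.16, adjusted p = 0.0153). The 4 SPRR3 counts of HCC1806 controls came from 1 library, and the call was lost without sgC1 replicate 1 (adjusted p = 0.0582), without sgC1 replicate 2 (0.0549), and between the sgPACT-2 libraries, where the difference was 0.83 (adjusted p = 0.444). IVL differed by 3.26 (adjusted p = 7.80e-07) and by 2.90 without both libraries numbered 1, from 0.893 ± 0.45 to 8.58 ± 0.343 CPM. SPRR1B overlapped between the lines, and SPRR1A was too low to test.

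Promoters of all 4 of these genes held an AP-1 motif, TGANTCA, which reads the same on both strands, within 250 bases before to 50 bases after the start site in RefSeq (GRCh38.p14). The windows below show each match in capitals with 10 bases on either side, on the plus strand.
IVL, chr1:152908413-152908439: atgcctgtggTGAGTCAggaaggggtt
SPRR1A, chr1:152983963-152983989: gatggtagtgTGAGTCAtgtgtgacag
SPRR1B, chr1:153031052-153031078: tcacaaaagtTGAGTCAacaggtgggt
SPRR1B, the other match, chr1:153031082-153031108: ggaagaggggTGAATCAcatctgacag
SPRR3, chr1:153001569-153001595: gggtggacagTGAGTCAggcccaggtg
The table held 35 promoter windows for 22 of the 43 members, with 6 each for GATA3 and ESR1 and 3 for PGR, so shares over windows are not shares over the set. The motif was present in 17.1% of these windows and in 7.71% of 35116 windows of all genes. TATAAA was present in 20% and 11.5%, and the GC box GGGCGG in 45.7% and 45%, each searched on both strands. A match is a description of letters and not a site of binding. These genes did not share a level: IVL was the highest of them in MDA-MB-468 at 3.98 ± 0.159 CPM per kilobase, and SPRR1A was at 0.222 ± 0.3.

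The desmosomal cadherins parted. DSG3, desmoglein 3 of stratified squamous epithelium, was at 24.5, 35.6 and 35.4 CPM in HCC1806 controls, 2219 counts in all, and MDA-MB-468 controls held 1 count, a ratio of 3453 with a counting interval of 619 to 136454. DSC3, desmocollin 3, was at 77.1, 91 and 79.8 CPM in HCC1806 and 139, 159 and 156 CPM in MDA-MB-468 (log2 difference 0.87, SE 0.12, adjusted p = 6.40e-06). MDA-MB-468 thus held more desmocollin 3 transcript and almost no desmoglein 3 transcript, with no overlap between the lines in either gene. TP63, the gene of the basal and squamous master factor p63, was at 234, 268 and 244 CPM in HCC1806 and 0.585, 0.426 and 0.849 CPM in MDA-MB-468 controls, 391-fold lower (log2 difference -8.61, SE 0.22, adjusted p = 2.02e-15). Counts per gene do not separate its full-length and short isoforms. SOX2, which is often gained in squamous tumors, had 77 counts in HCC1806 controls and 0 in all MDA-MB-468 libraries, at least 39.9-fold higher in HCC1806 against a floor of 3 counts over the group. FOXC1, a factor of basal-like tumors, was at 53.2, 69 and 79.7 CPM in HCC1806 and 84.1, 86.5 and 84.6 CPM in MDA-MB-468 and did not pass (log2 difference 0.34, adjusted p = 0.207). It passed without HCC1806 sgPACT-2 replicate 1 (adjusted p = 0.0361) and without replicate 3 of that group (0.0398).

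All 5 tested luminal factors and receptors passed, 3 higher and 2 lower in MDA-MB-468. FOXA1, the pioneer factor of luminal cells, was higher in MDA-MB-468 by 0.82 (adjusted p = 0.002). GATA3, the luminal fate factor, was lower in that line (log2 difference -0.55, adjusted p = 0.0292). The GATA3 groups overlapped, and the call was lost without HCC1806 sgC1 replicate 2 (adjusted p = 0.141), sgC1 replicate 3 (0.127), MDA-MB-468 sgNTA replicate 1 (0.081) or sgNTA replicate 2 (0.0781). KIT, the receptor that marks luminal progenitors, was at 0.876, 0.716 and 1.14 CPM in HCC1806 and 3.93, 3.89 and 5.84 CPM in MDA-MB-468 (log2 difference 2.31, SE 0.33, adjusted p = 5.87e-06). ELF5, the alveolar progenitor factor, differed by 1.61 (adjusted p = 0.00235). ESR1 was at 19.8, 19.9 and 23 CPM in HCC1806 and 6.27, 7.09 and 6.64 CPM in MDA-MB-468 (log2 difference -1.65, SE 0.14, adjusted p = 8.14e-09).

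The cadherins were lower in MDA-MB-468. CDH3 was at 556, 461 and 488 CPM in HCC1806 and 50.0, 54.3 and 55.8 CPM in MDA-MB-468 controls, 9.4-fold lower (log2 difference -3.23, SE 0.13, adjusted p = 3.52e-13). CDH2 differed by -3.16 (adjusted p = 3.62e-06; -2.75 without both libraries numbered 1) and CDH1, E-cadherin, by -0.74 (adjusted p = 1.45e-06). CDH1 remained the higher of CDH1 and CDH2 in both lines, at 66.7 ± 2.31 against 3.58 ± 1.66 CPM per kilobase in HCC1806 and 39.9 ± 1.11 against 0.399 ± 0.0689 in MDA-MB-468. EPCAM, the epithelial adhesion molecule, overlapped between the controls (log2 difference -0.13, 95% interval -0.41 to 0.14). Between the sgPACT-2 libraries it was higher in MDA-MB-468 (0.30, adjusted p = 0.0453). VIM was at 15.5, 11.8 and 11.9 CPM in MDA-MB-468 controls, overlapping HCC1806 through the HCC1806 library numbered 1, and did not pass (0.81, adjusted p = 0.184). Without both libraries numbered 1 the VIM difference was 1.64 (adjusted p = 6.47e-06). It also passed without HCC1806 sgC1 replicate 1 alone (1.64, adjusted p = 0.0188) and without sgPACT-2 replicate 1 alone (0.83, adjusted p = 0.0278). Between the sgPACT-2 libraries, which share a guide, 32 of the 38 members passed, 22 higher and 10 lower in MDA-MB-468, against 74.7% of all genes.

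Because filaments need both keratin types, the transcripts were also summed by type over 28 type I and 26 type II genes, members and other keratins together. HCC1806 controls held 451 ± 84.9 CPM per kilobase of type I and 502 ± 57.4 of type II keratin (mean ± SD, n = 3). MDA-MB-468 controls held 1013 ± 67.2 and 1054 ± 79.1, and no library of either line overlapped the other in either sum. The ratio of type I to type II was 0.894 ± 0.0978 in HCC1806 controls and 0.961 ± 0.0124 in those of MDA-MB-468. With the exon lengths used, both sums were higher in MDA-MB-468 and the ratio was near 1 in both lines. The merged exons exceeded the longest coding transcript unequally, 4.093 kb against 1754 bases in KRT7 and 1.929 kb against 1929 bases in KRT81. The ratio and the shares below therefore depend on these lengths, and other lengths were not tried. The make-up differed: KRT19 was 66 ± 1.94% of the type I sum in HCC1806 and 41.6 ± 2.54% in MDA-MB-468, where KRT17 took 20.4 ± 1.96% (HCC1806 1.4 ± 0.135%). Of the type II sum, KRT6A made up 17 ± 2.13% in HCC1806 and 0.118 ± 0.00624% in MDA-MB-468, and KRT81 was 0.0891 ± 0.0321% and 23 ± 1.76%. Keratin genes took 0.352 ± 0.0577% of all counts in HCC1806 controls and 0.632 ± 0.0324% in MDA-MB-468 controls. Of 33 keratin genes outside the set, counting KRT222, which entered neither sum, 10 had counts enough to be tested between the lines. Of these, 7 were higher and 1 lower in MDA-MB-468, against 34.2% and 40.1% of all genes tested. In either direction 74.2% of all genes passed.

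**Figure D4:**
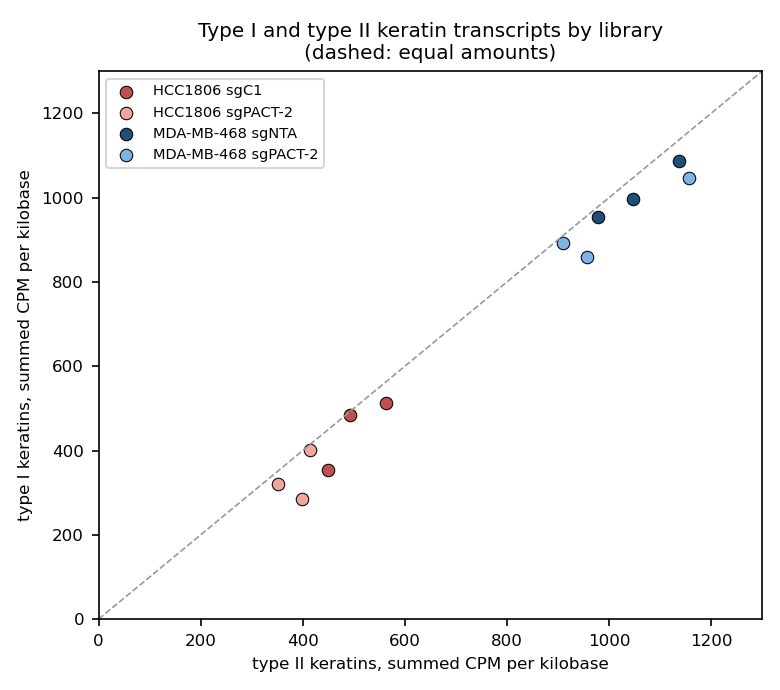
Summed CPM per kilobase of type I keratins (y axis) against type II keratins (x axis) in the 12 libraries; each point is 1 library and the dashed line marks equal amounts. With the exon lengths used, all 12 libraries fall below the dashed line, and the MDA-MB-468 libraries lie at higher sums than the HCC1806 libraries.

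In HCC1806, depletion of PACT came with lower mean levels of KRT5, KRT6A and the adhesion genes EPCAM and CDH1. No member passed the main test, in which the line was fitted alone without the replicate number. With edgeR, 0 of 33 tested members were called, against 0.315% of 23485 genes (0.277% higher and 0.0383% lower). Of the 33, 10 had an unadjusted p under 0.05, as did 2696 of all genes. DESeq2 called 1 of 27, KRT5, and its share of all genes is not given here. In the model of all 12 libraries, which takes 1 spread for both lines, KRT5, EPCAM and CDH1 were called lower, 3 of 38 members against 2.49% of all genes. When the line was fitted alone with the replicate number included, KRT5, KRT6A, KRT19, DSG3 and EPCAM were called lower and KRT17 higher. The share of all genes in that fit is given at the end. KRT5 was at 616, 748 and 936 CPM with sgC1 and at 321, 370.0 and 526 CPM with sgPACT-2, so every depleted library lay below every control library. The log2 fold change was -0.90 (SE 0.21, 95% interval -1.36 to -0.44), with adjusted p = 0.138 in the line alone and 0.0106 in the model of all libraries. It passed in 6 of 12 alternatives, without sgPACT-2 replicate 3 among them (adjusted p = 0.0472), and was -0.90 (adjusted p = 0.0108) without both libraries numbered 1. EPCAM was at 232, 175 and 183 CPM with sgC1 and 159, 137 and 108 CPM with sgPACT-2, also without overlap (log2 fold change -0.53, SE 0.16; adjusted p = 0.232 alone and 0.0335 in the model of all libraries). CDH1 was at 421, 395 and 419 CPM with sgC1 and 353, 296 and 301 CPM with sgPACT-2, without overlap (log2 fold change -0.36, SE 0.12; adjusted p = 0.26 and 0.0373). In these bulk samples, fewer cells that make a transcript and less of it per cell cannot be told apart.

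Other members of HCC1806 are given as values. The simple keratins had log2 fold changes of 0.14 (KRT7), -0.35 (KRT8), -0.05 (KRT18) and -0.58 (KRT19, 95% interval -1.03 to -0.13). Among the stress keratins KRT6A was at -0.57 and its partners KRT16 and KRT17 at 0.33 and 0.53. TP63 stood at -0.03 with an interval of -0.35 to 0.29, so a change of 1 log2 unit in either direction lay outside it, whereas the intervals of KRT13 (-1.95 to 1.18), KRT4 (-1.98 to 1.30) and VIM (-2.37 to 0.80) reached past 1 unit on both or 1 side. All 3 depleted libraries lay below all controls in 5 members (KRT5, KRT6A, DSC3, CDH1 and EPCAM) and above them in 2 (KRT17 and KRT23), against 8.95% and 8.67% of all genes tested. Over the tested members the median log2 fold change was -0.17, and over all genes it was 0.02. Single libraries moved the calls: without sgPACT-2 replicate 1, EPCAM, KRT6A, KRT8 and VIM were called lower (4 members, 1.74% of all genes), and VIM then stood at -2.24 in place of -0.79. Without both libraries numbered 1, KRT5, KRT6A and KRT19 were called lower (1.37% of all genes).

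The make-up of the type II keratins of HCC1806 differed between the guides. KRT7 was 29.7 to 32.5% of the type II sum in the control libraries and 43.7 to 44.3% in the depleted libraries, and KRT5 was 32 to 38.7% and 18.8 to 29.6%. KRT7 itself was at 587, 657 and 684 CPM with sgC1 and 713, 636 and 749 CPM with sgPACT-2, so its level overlapped between the guides while its share did not. These shares show unequal change within the sum and were not tested. They also depend on the exon lengths used. The type II sum was 502 ± 57.4 CPM per kilobase with sgC1 and 388 ± 31.9 with sgPACT-2 (exact permutation test, two-sided, p = 0.1, the smallest that 3 against 3 libraries can give; adjusted p = 0.533 over 8 such tests). The type I sum was 451 ± 84.9 and 336 ± 59.5 (exact permutation p = 0.2, adjusted p = 0.533), and the ratio of the types was 0.894 ± 0.0978 and 0.865 ± 0.135 (exact permutation p = 0.7). In MDA-MB-468 the exact permutation p-values of the type I sum, the type II sum and their ratio were 0.3, 0.6 and 0.4, and KRT7 was 26.3 to 28.5% of the type II sum in control and 26.5 to 28.7% in depleted libraries.

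In the main fit of MDA-MB-468, without the replicate number, KRT15 was the member called on depletion. It fell in all 3 depleted libraries, from 46.8, 44.5 and 53.2 CPM with sgNTA to 34.3, 36.7 and 32.8 CPM with sgPACT-2, without overlap. The fall was 1.38-fold (log2 fold change -0.46, SE 0.08, adjusted p = 0.00139), and 1 of 36 tested members was called, against 1.51% of 21404 genes (1.21% higher and 0.299% lower). It passed in 10 of 11 other fits, including each library left out (adjusted p 0.00309 to 0.0395), and did not in the model of all 12 libraries, where the spread of HCC1806 enters (log2 fold change -0.48, adjusted p = 1). Its change was also below a minimum log2 fold change of 1, a rule under which no member was called. That model called 0 members and 46 genes, 0.17%. In HCC1806 KRT15 was at 25.1, 49.1 and 50.4 CPM with sgC1 and 16.1, 22.5 and 44.9 CPM with sgPACT-2, overlapping (log2 fold change -0.56, 95% interval -1.35 to 0.23). The other basal keratins of MDA-MB-468 had fold changes of -0.35 (KRT14, adjusted p = 0.2) and -0.03 (KRT5, 95% interval -0.20 to 0.13). KRT19 was at -0.21 (adjusted p = 0.13), KRT80 at 0.22 (adjusted p = 0.202) and KIT at -0.43 (adjusted p = 0.439). Without sgPACT-2 replicate 1, KRT14, KRT16 and KRT19 were called lower beside KRT15 (1.42% of all genes), and without sgNTA replicate 3, KRT14 was (0.879%). With the replicate number included in the fit, KRT14 and KRT19 were called lower and KRT80 higher beside KRT15. The share of all genes in that fit is given at the end.

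None of the keratins and factors that set MDA-MB-468 apart from HCC1806 passed on depletion in the main fit of MDA-MB-468, without the replicate number. KRT81 and KRT23, the most different keratins between the lines, had log2 fold changes of -0.08 (95% interval -0.25 to 0.09) and 0.00 (-0.14 to 0.14), and KRT17 had 0.05 (-0.14 to 0.23). The luminal factors GATA3 and FOXA1 were at 0.08 (-0.08 to 0.24) and -0.04 (-0.20 to 0.12). TP63 remained scarce, at 0.585, 0.426 and 0.849 CPM with sgNTA and 0.998, 0.872 and 1.38 CPM with sgPACT-2; the groups did not overlap, and the fold change did not pass (log2 0.81, SE 0.42, adjusted p = 0.513). The depleted libraries lay below all controls in 5 members (KRT15, KRT19, IVL, KIT and EPCAM) and above them in 2 (TP63 and CDH3), against 7.96% and 6.79% of all genes tested. The median over tested members was -0.09 and over all genes 0.00. DSG3, SOX2, SOX10, PGR, KRT1, KRT6C and SPRR1A were not tested there because of low counts, and KRT6B, KRT6C, KRT1, KRT75, KRT83, SPRR1A, SPRR3, SOX10, PGR and ELF5 were not tested in HCC1806.

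The difference between the depletion effects of the lines (MDA-MB-468 minus HCC1806) was tested in the model of all 12 libraries, and edgeR called 0 of 38 members, against 0.122% of 27029 genes (0.0222% higher and 0.0999% lower); 7 members and 2269 genes had an unadjusted p under 0.05, and DESeq2 called 0. KRT5 had the smallest adjusted p, with a difference of 0.87 (SE 0.25, adjusted p = 0.248), from -0.90 in HCC1806 and -0.03 in MDA-MB-468. KRT23 differed by -1.07 (adjusted p = 0.312), CDH3 by 0.49 (adjusted p = 0.393) and TP63 by 0.82 (adjusted p = 0.43). For KRT15, which passed in MDA-MB-468 alone, the difference was 0.09 (SE 0.39, adjusted p = 1). The KRT15 effects were not shown to differ, and the 95% interval was wide (-0.74 to 0.92). Without HCC1806 sgPACT-2 replicate 1 CDH3 was called (0.576% of all genes), without sgPACT-2 replicate 3 KRT5 was (0.152%), and without both libraries numbered 1 both were (0.576%). KRT5 was also called when the replicate number was included in the fit, as given at the end with the share of all genes.

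Neighbouring gene lists were tested the same way. Of 22 genes of late keratinocyte differentiation, 2 of 13 tested rose on depletion in HCC1806 and 0 fell, against 0.277% and 0.0383% of all genes. KLF4, a factor of barrier formation, rose from 11.4 ± 0.856 to 29.2 ± 5.01 CPM (log2 fold change 1.37, SE 0.15, adjusted p = 0.00431), and the grainyhead factor GRHL1 rose from 6.86 ± 1.47 to 16.3 ± 2.33 CPM (log2 fold change 1.26, SE 0.20, adjusted p = 0.0343). In MDA-MB-468 2 of 14 tested genes rose and 3 fell, against 1.21% and 0.299% of all genes. KLF4 rose there too (0.77, adjusted p = 0.000105), as did TGM1, the transglutaminase of the cornified envelope (0.63, adjusted p = 0.000292), and the antimicrobial S100 protein gene S100A7 fell (-0.51, adjusted p = 0.0001). S100A8 and S100A9 also fell, by 0.54 and 0.27 on the log2 scale. The difference between the lines passed for GRHL1 (-1.08, adjusted p = 0.0335), with 1 of 16 tested genes called against 0.122% of all genes. The 5 calls of MDA-MB-468 were 0 in the model of all 12 libraries. The tested genes had a median log2 fold change of 0.34 for HCC1806 and -0.02 in MDA-MB-468, against 0.02 and 0.00 for all genes.

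No gene was called on depletion, in either line fitted alone with edgeR, among the tested genes of 18 desmosome and hemidesmosome components (16 tested in HCC1806 and 17 in MDA-MB-468), 16 luminal epithelial genes (13 and 13), 13 genes of the mesenchymal transition (10 and 8), 7 stromal and blood cell markers (2 and 5) and 33 other keratins (2 and 9). With DESeq2, 1 desmosome gene, 1 luminal gene and 1 mesenchymal gene were called in HCC1806 and 1 luminal gene in MDA-MB-468. The share of all genes called by DESeq2 is not given here, so these counts cannot be set against it. The smallest adjusted p of these lists in HCC1806 was that of DSG2, the desmoglein of simple epithelia, at -0.55 (adjusted p = 0.0814; difference between the lines 0.54, adjusted p = 0.145). Between the control lines 74.2% of all genes passed (34.2% higher and 40.1% lower in MDA-MB-468), and the counts of the lists are to be read against that share. Of 17 tested desmosome and hemidesmosome genes 11 were lower and 5 higher in MDA-MB-468, where the collagen gene COL17A1 stood at 1.23 ± 0.211 CPM against 1453 ± 242 in HCC1806 (log2 difference -10.20, adjusted p = 1.87e-15). Integrin beta 4 (ITGB4), which anchors basal cells to the basement membrane, differed by -3.48. Of 14 tested luminal genes 8 were higher in MDA-MB-468 and 3 lower, with SPDEF, a luminal factor, at 0.288 ± 0.105 CPM in HCC1806 and 175 ± 4.24 CPM in MDA-MB-468. Of 11 tested mesenchymal transition genes 7 were lower and 2 higher in MDA-MB-468, and of the 16 late differentiation genes 10 were higher and 3 lower.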

How the data were processed

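Gene-level raw counts of 57500 genes in 12 libraries were deposited by the authors, unnormalized. Per the submitters' processing notes the tools were Trimmomatic 0.36, STAR 2.5.2b and featureCounts of Subread 1.5.2 on GRCh38. The strand setting, the treatment of multi-mapping reads and the annotation release are not given in the sources used here. The 485 genes with no symbol held 0.0284% of counts and were kept. Groups came from the sample titles and treatment labels. Exon lengths, overlaps and coding sequences came from GENCODE 29, which held 56898 of the 57500 identifiers and all 43 members, and promoters from RefSeq GRCh38.p14.

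Counts were tested with edgeR 4.0.16 (quasi-likelihood, filterByExpr, TMM scaling, Benjamini-Hochberg adjustment over all genes tested, R 4.3.3), after the steps were tested on simulated data. Depletion was tested in each line alone, because the spread differed (biological coefficient of variation 0.204 for HCC1806 libraries, 0.0936 for those of MDA-MB-468). The line difference and the difference of the depletion effects used 1 model of all 12 libraries. Keratin sums were compared by exact permutation tests. Alternatives were RLE size factors, DESeq2 1.42.0, limma 3.58.1 voom with quality weights, no filter on low counts, a minimum log2 change of 1, a replicate block, 1 model for both lines, the sgPACT-2 libraries for the line difference, and each library left out.

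Values per library are given for members called on depletion in the line alone or in the model of all libraries, and, between the lines, for the member with the largest difference in each direction in each role group. The rest are given by level, range and count. Of the other lists, up to 3 called members with the smallest adjusted p in each line are named; genes named beyond this were chosen after their values were seen. Members and lists were chosen with earlier results of these data known.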

Additional observations from a re-analysis of the deposited data

How the results depend on the processing

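The 31 members that passed between the control lines numbered 24 to 34 under the alternatives and 29 to 34 with 1 library left out. EPCAM did not pass between the control lines (-0.13) and passed as higher in MDA-MB-468 between the sgPACT-2 libraries (0.30). For depletion in HCC1806 (0 members called with edgeR), DESeq2 called 1, no filter on low counts 5, 1 model of all 12 libraries 3, and both libraries numbered 1 left out 3. With 1 library left out the count was 0 to 4. The share of all genes called changed too, from 0.315% in the main fit to 2.49% in the model of all 12 libraries. For DESeq2 and for no filter on low counts that share is not given here. Counts of members under the alternatives are therefore not a result about the members alone. For MDA-MB-468 (1 called), a minimum log2 fold change of 1 left 0, no filter 2 and the model of all libraries 0; with 1 library left out the count was 1 to 4. For the difference of the depletion effects (0 called), no filter called 2, both libraries numbered 1 left out 2, and 1 library left out 0 to 1. With the replicate block, 6 members were called in HCC1806 (KRT5, KRT6A, KRT19, DSG3 and EPCAM lower and KRT17 higher; 2.84% of all genes), 4 in MDA-MB-468 (KRT14, KRT15 and KRT19 lower and KRT80 higher; 4.82%) and 1 for the difference (KRT5; 1.00%). Deviations of same-numbered libraries correlated at 0.231, 0.137 and 0.0771 in HCC1806 and at 0.0284, 0.0156 and 0.0240 in MDA-MB-468 over 27029 genes. Each control correlated best with its own number except HCC1806 control 2, which was slightly closer to depleted library 3 (0.143). The sample titles gave a replicate number, and the main fits left it out. Whether same-numbered libraries were made together was not tested. The calls with and without the block are therefore to be read side by side. Over the 38 tested members alone the same correlations were 0.698, 0.357 and 0.412 in HCC1806 and 0.393, 0.180 and 0.568 in MDA-MB-468, and HCC1806 control 2 was again closest to depleted library 3 (0.685). The cause of these changes was not tested. Members below about 1 CPM, such as SPRR3, KRT83 and KRT75 in HCC1806, rested on few counts.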
